A study of Bos taurus with 3 samples.

Results

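The miR-127 to miR-136 cluster is a group of miRNA hairpins in the imprinted DLK1-DIO3 region, and the members described here are miR-127, miR-136, miR-370, miR-431, miR-432, miR-433, miR-493 and miR-665. They were chosen by name and not by level, and they make up 8 of the 793 mature miRNAs of the deposited table. Each member had 1 mature row on 1 hairpin, so none of them was counted at several hairpin copies and no second arm is described. The sequenced small RNA came from large dense-core vesicles, the organelles in which chromaffin cells of the adrenal medulla store catecholamines and peptides. The vesicles were purified from adrenal chromaffin cells of cows from a local slaughter, with no treatment named. The 3 libraries are 1 labelled biological replicate and 2 labelled technical replicates, and the labels tell neither which step the technical pair repeats nor how many animals each preparation came from. Means and SD were therefore taken over n = 2 preparations, with the technical pair averaged first. No library of whole chromaffin cells was analysed here, so enrichment of a miRNA in the vesicles over the cell cannot be read from these values.

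In mammals the DLK1-DIO3 region is imprinted: DLK1, RTL1 and DIO3 are expressed from the paternal chromosome, and the noncoding RNAs, among them MEG3, MEG8 and the miRNAs, from the maternal one. In mouse and human, miR-431, miR-433, miR-127, miR-432 and miR-136 lie on a transcript antisense to RTL1, a retrotransposon-derived gene, and in mouse such miRNAs are known to pair perfectly with the Rtl1 transcript and to lead to its cleavage. miRNAs of the region are known for their expression in brain and neuroendocrine tissue. All 8 hairpins were found in the RefSeq annotation of the cattle assembly ARS-UCD2.0, between DLK1 and DIO3. Their order there is miR-493, miR-665, miR-431, miR-433, miR-127, miR-432, miR-136 and miR-370, starting on the side of MEG3. The 5 hairpins from miR-431 to miR-136 lie within the interval annotated as RTL1. The interval annotated as MEG8 holds 3 of the hairpins, namely miR-432, miR-136 and miR-370, and miR-493 and miR-665 lie outside both intervals and outside MEG3.

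Summed over the mature miRNAs, with each miRNA entered once, there were 6708654 counts in the biological replicate and 5546771 and 6251664 counts in technical replicates 1 and 2. Levels are given in CPM, the count divided by the library's total and scaled to a common total of 1e6 counts, and a count of 0 would have allowed up to 0.541 CPM (3 counts) in the shallowest library. The 95% intervals are exact Clopper-Pearson intervals, computed within a library, and cover counting error only. They are counts of reads, since no molecular identifiers are named. They leave out the spread between libraries: for the cluster's share given below, the intervals of the technical pair do not overlap. Of the marker lists, the chromaffin and endocrine one (miR-375 and miR-7) summed to 473000 CPM in the biological replicate and to between 428375 and 440620 CPM in the technical replicates, and neither of its 2 members passed the test described below. The smooth muscle and fibroblast list summed to 10249 CPM in the biological library, against 16827 and 18866.5 CPM in the technical replicates, and 5 of its 6 members were lower. The endothelial list holds miR-126 alone, so its 2 members are not separate markers. It summed to 1130 CPM, against 1820 and 1888 CPM, with 2 of 2 members lower. The leukocyte list (2 of 5 tested members lower) summed to 123 CPM, against 281 and 280 CPM, each with the biological replicate first. The erythrocyte list summed to 1097 CPM, against 898 and 837 CPM, with 1 of 2 tested members higher, and the neuronal list to 6441 CPM, against 6566 and 6782 CPM, with 4 of 7 members higher and 1 lower. These counts are edgeR calls on TMM-scaled counts and stand beside 17.7% called higher and 20.2% called lower over all miRNAs tested. With library totals (6.54% higher and 23.4% lower over all) they were the same, except that 3 of the 7 neuronal members were higher. No marker was at 0 in all libraries.

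The cluster took a small part of the miRNA counts in both preparations, and nearly all of it was miR-127. The 8 members together held 1.82% ± 0.0411 (SD, n = 2) of all counts. Their share was 1.79% in the biological replicate (95% interval 1.78 to 1.80%), against 1.79% (1.77 to 1.80%) in technical replicate 1 and 1.92% (1.91 to 1.93%) in technical replicate 2. The biological replicate thus lay at the level of the lower technical library, and the preparations differed by less than the technical pair did. With miR-375, the most abundant miRNA of these vesicles, left out of the totals, the share was 3.01%. An exact permutation test over 3 libraries cannot give a p below 0.333, so none is given for shares and ratios here.

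miR-127 (MIMAT0003787), which in mouse is known to act on Rtl1 in the placenta, was the main product of the cluster. It had 104596 counts in the biological replicate, against 86722 and 105936 counts in the technical replicates. These equal 15591 CPM in the biological library, against 15635 and 16945 CPM in technical replicates 1 and 2. The biological and the first technical library were close together and the second technical library was the highest. miR-127 held 86.9% of the cluster's counts in the biological replicate (95% interval 86.7 to 87.1%), against 87.6% (87.4 to 87.8%) and 88.2% (88.04 to 88.4%) in the technical replicates. By mean level it ranked 13 among the 793 miRNAs, at 15941 ± 494.1 CPM (SD, n = 2). Its count was 6.62 times the sum of the 7 other members in the biological replicate, against 7.05 and 7.50 times in the technical replicates.

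**Figure D1:**
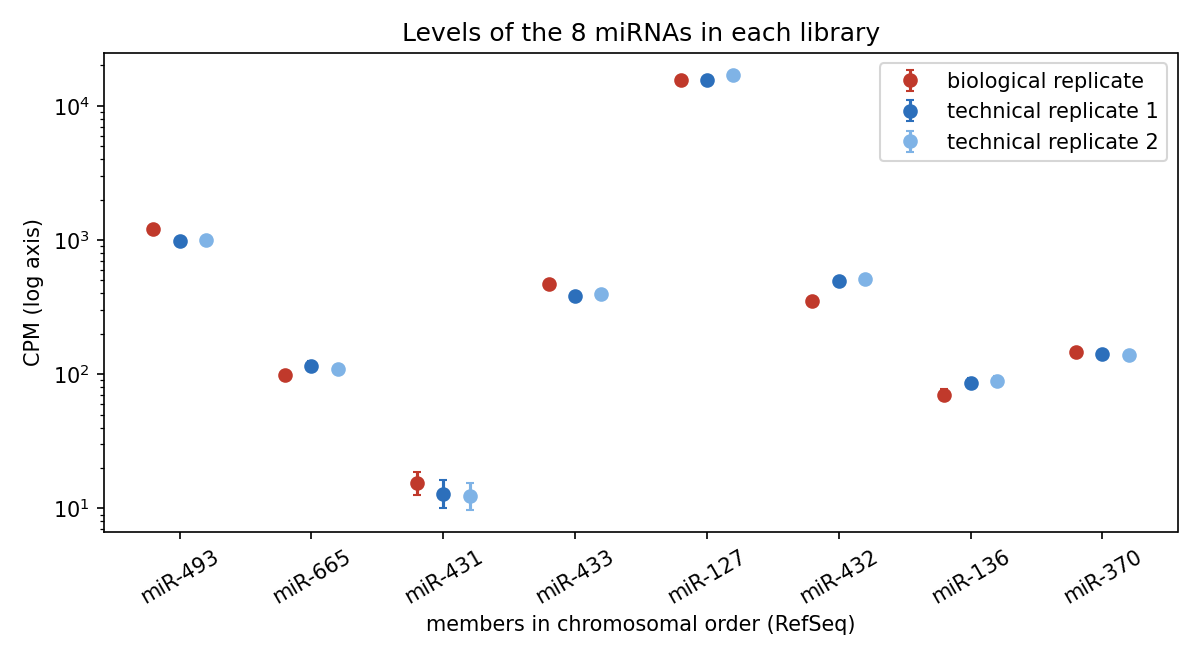
CPM (log axis) of the 8 members in chromosomal order, with 1 point per library and bars for the exact 95% counting interval. miR-127 is the highest and miR-431 the lowest in every library, and miR-432 is the member whose biological point lies furthest below both technical points.

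The other members ran from 1095 CPM down to 14.03 CPM on average. miR-493 (MIMAT0009333), a miRNA studied in human tumours as an inhibitor of metastasis, came after miR-127 at 1095 ± 150 CPM (SD, n = 2) and rank 59. It had 1201 CPM in the biological replicate (8059 counts), against 980 and 999 CPM in the technical replicates (5435 and 6248 counts). The biological library was the highest and the technical libraries differed little.

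miR-433 (MIMAT0009318) and miR-432 (MIMAT0009317), which lie on either side of miR-127 within the RTL1 interval, had mean levels that did not differ beyond their spread, at 431 ± 59.7 and 429 ± 109 CPM (SD, n = 2). miR-433 had 473 CPM in the biological replicate (3175 counts), against 383 and 394 CPM in the technical replicates (2126 and 2465 counts). miR-432 had 352 CPM in the biological replicate (2360 counts), against 497 and 516 CPM in the technical replicates (2758 and 3225 counts). The biological library was thus above both technical libraries for miR-433 and below both for miR-432. Their ranks crossed as well: miR-433 ranked 95 and miR-432 ranked 111 in the biological replicate, whereas miR-432 ranked 95 and 93 and miR-433 ranked 109 and 108 in the technical replicates.

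The remaining 4 members were scarcer. miR-370 (MIMAT0009300), known in human liver cells for acting on the fatty acid oxidation enzyme CPT1A, had 146 CPM in the biological library, against 142 and 140 CPM in the technical replicates. Its 3 libraries lay within the counting intervals of each other (137 to 155 CPM in the biological library, against 132 to 152 and 131 to 150 CPM). miR-665 (MIMAT0009363), whose hairpin is the neighbour of miR-493, had 98.7 CPM in the biological library, against 116 and 109 CPM in the technical replicates. Both technical libraries were higher, but the interval of the biological replicate (91.3 to 106 CPM) overlapped that of technical replicate 2 (101 to 118 CPM).

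miR-136 (MIMAT0009230), the neighbour of miR-432 and another miRNA known to pair with Rtl1 in mouse, had 70.4 CPM in the biological library, against 85.8 and 89.6 CPM in the technical replicates. The biological library was again the lowest, as for miR-432. miR-431 (MIMAT0009316), a miRNA linked to axon regrowth in mouse sensory neurons, had 15.5 CPM in the biological library, against 12.8 and 12.3 CPM in the technical replicates. It rested on 104 counts in the biological replicate, against 71 and 77 counts, and the intervals of all 3 libraries overlapped (12.7 to 18.8 CPM, against 9.997 to 16.1 and 9.72 to 15.4 CPM).

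Levels within the cluster thus differed by about 3 orders of magnitude, and the order of the members was nearly fixed. From miR-127 to miR-431 the count differed 1006-fold in the biological replicate, against 1221-fold and 1376-fold in the technical replicates. From high to low, the order was miR-127, miR-493, miR-433, miR-432, miR-370, miR-665, miR-136 and miR-431 in the biological replicate. Both technical replicates had this order too, except that miR-432 stood above miR-433. The measured levels did not rise or fall steadily along the chromosome. miR-431, the scarcest, lies next to miR-433 in the RTL1 interval, and miR-433 lies next to miR-127, the most abundant. Whether position bears on level was not tested. miRNAs differ in how well adapters ligate to them, so levels of different miRNAs in a library are less comparable than those of 1 miRNA across libraries.

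Between the preparations 2 members were higher, 1 was lower and 5 did not pass the test. The test was edgeR's quasi-likelihood test on TMM-scaled counts with Benjamini-Hochberg adjustment over the 367 miRNAs that reached 10 counts in 1 or more libraries, and a call is an adjusted p below 0.05. All 8 members met the count minimum. Of all miRNAs tested 37.9% were called, so the 3 of 8 called members (37.5%) are no more than the background, and the number of calls says nothing particular about the cluster. The calls divide into 17.7% higher and 20.2% lower over all miRNAs. With library totals in place of TMM, 6.54% were higher and 23.4% lower, and log2 fold changes were lower by 0.18 in the median.

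miR-493 was higher in the biological replicate, with a log2 fold change of 0.46 ± 0.09 (SE; edgeR, adjusted p = 9.7e-06). miR-433 was higher to the same extent, by 0.47 ± 0.10 (SE; edgeR, adjusted p = 2.4e-05). miR-432 was lower, with a log2 fold change of -0.34 ± 0.10 (SE; edgeR, adjusted p = 0.0029). The size of these p-values depended on the setting. With DESeq2 size factors in edgeR the log2 fold changes were nearly the same, at 0.45, 0.46 and -0.35 for miR-493, miR-433 and miR-432. All 3 adjusted p were larger there, and for miR-493 and miR-433 by orders of magnitude, so the smallest values should not be read as firm. The CPM given above come from the same counts and have the same directions for all 3. In these CPM the biological library lay outside the range of the technical pair, as it did for every other member, called or not. With library totals, miR-493 and miR-433 no longer passed (0.28 for each, edgeR adjusted p = 0.057 and 0.068), whereas miR-432 did (-0.53, adjusted p = 0.015).

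The other 5 members did not pass. miR-431 had the largest log2 fold change of the cluster, 0.49 ± 0.22 (SE), but with its few counts an adjusted p of 0.072 (edgeR). miR-370 had 0.23 ± 0.12 (SE; edgeR, adjusted p = 0.12) and miR-127 had 0.12 ± 0.12 (SE; edgeR, adjusted p = 0.48). The fold change of miR-127 had the opposite sign with library totals, at -0.063, in a fit limited to miRNAs averaging 100 CPM or more, at -0.030, and in the authors' log2 values, at -0.031. miR-665 and miR-136 had -0.01 ± 0.13 and -0.14 ± 0.14 (SE; edgeR, adjusted p = 0.95 and 0.48). The members' median was 0.17, beside 0.01 over all miRNAs tested, and with library totals -0.01 beside -0.17.

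With 1 residual degree of freedom, edgeR could estimate its spread only within the technical pair, and it drew each miRNA's spread towards that of all miRNAs tested. The p-values therefore rest in part on spread shared across miRNAs. They hold for these libraries and do not extend to animals. The RNA was pooled over vesicles, so a change in the preparation's make-up and a change in RNA per vesicle cannot be told apart. The smooth muscle and fibroblast, endothelial and leukocyte lists summed lower in the biological replicate, like miR-432. The erythrocyte list and the chromaffin and endocrine list summed higher, like miR-493 and miR-433, though no chromaffin and endocrine member was called. Of the neuronal list, 4 of 7 members were higher while its sum was lower. The part of these lists in the members' changes was not tested.

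**Figure D2:**
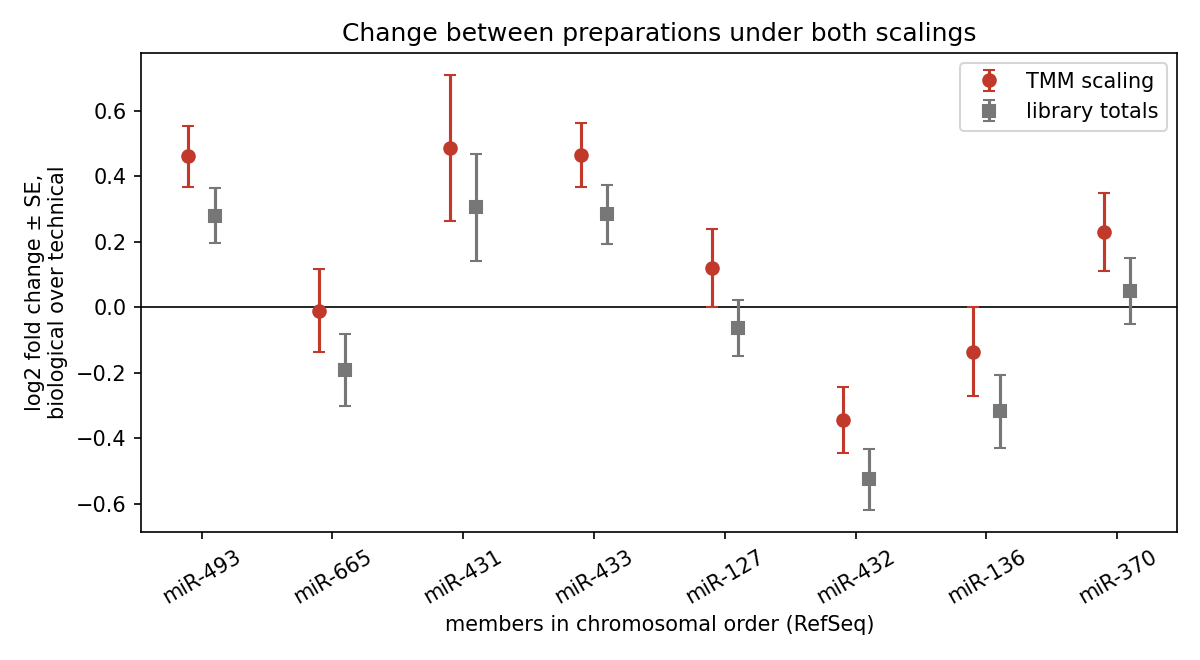
Log2 fold change of each member, biological over technical, with its SE from edgeR, under TMM scaling (circles) and library totals (squares), in chromosomal order. The 2 scalings shift all members together by about 0.18. Under both, miR-493, miR-431, miR-433 and miR-370 stay above 0 and miR-432, miR-136 and miR-665 below 0. Only miR-127 changes sign.

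Ratios between members of the same library do not depend on scaling. There were 2.54 counts of miR-493 per count of miR-433 in the biological replicate, against 2.56 and 2.53 in the technical replicates. miR-493 and miR-433 thus kept their ratio across preparations, although they are not neighbours. By contrast, there were 1.35 counts of miR-433 per count of miR-432 in the biological replicate, against 0.771 and 0.764 in the technical replicates. As a share, miR-433 made up 57.4% of the counts of both in the biological replicate (95% interval 56.05 to 58.7%), against 43.5% (42.1 to 44.9%) and 43.3% (42.03 to 44.6%) in the technical replicates. The intervals of the technical pair overlapped almost wholly and neither reached that of the biological replicate. This pair was picked out after its values were seen.

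Over the 28 pairs of members, the log2 ratio of the biological replicate differed from the mean log2 ratio of the technical pair by 0.34 in the median and by 0.83 at most, for miR-431 over miR-432. Between the technical replicates the same ratios differed by 0.07 in the median and by 0.20 at most, for miR-665 and miR-127. Over all pairs of the 366 tested miRNAs with a count in every library, the medians were larger. They were 0.46 between preparations and 0.19 within the technical pair. Shifts of this size thus also occur outside the cluster, but the 366 include scarce miRNAs and were not matched to the members in level. Among miR-493, miR-433 and miR-431 the 3 ratios moved by at most 0.02 between preparations and by at most 0.10 within the technical pair. These 3 members were grouped after their values were seen, and miR-431 adds little because of its counting error. The neighbours miR-432 and miR-136 stood at 5 counts of miR-432 per count of miR-136 in the biological replicate, against 5.79 and 5.76 in the technical replicates. miR-127 stood between these sets: there were 44.3 counts of it per count of miR-432 in the biological replicate, against 31.4 and 32.8, and 13.0 per count of miR-493, against 16.0 and 17.0 in the technical replicates.

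Without miR-127, whose counts dominate the sum, the make-up of the cluster was nearly the same in the technical pair and shifted in the biological replicate. miR-493 made up 51.0% of the 7 other members' counts in the biological replicate (95% interval 50.2 to 51.8%), against 44.2% in each technical replicate (43.3 to 45.1% and 43.4 to 45.03%). miR-432 made up 14.9% in the biological replicate (14.4 to 15.5%), against 22.4% (21.7 to 23.2%) and 22.8% (22.1 to 23.5%) in the technical replicates. miR-433 made up 20.1% (19.5 to 20.7%), against 17.3% (16.6 to 18.0%) and 17.4% (16.8 to 18.1%) in the technical replicates. The largest shift in this composition was thus towards miR-493 and away from miR-432. miR-370 held 6.18% in the biological replicate, against 6.39 and 6.19% in the technical replicates, with overlapping intervals. The sum of the 7 itself took 0.236% of all miRNA counts in the biological replicate, against 0.222 and 0.226% in the technical replicates.

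**Figure D3:**
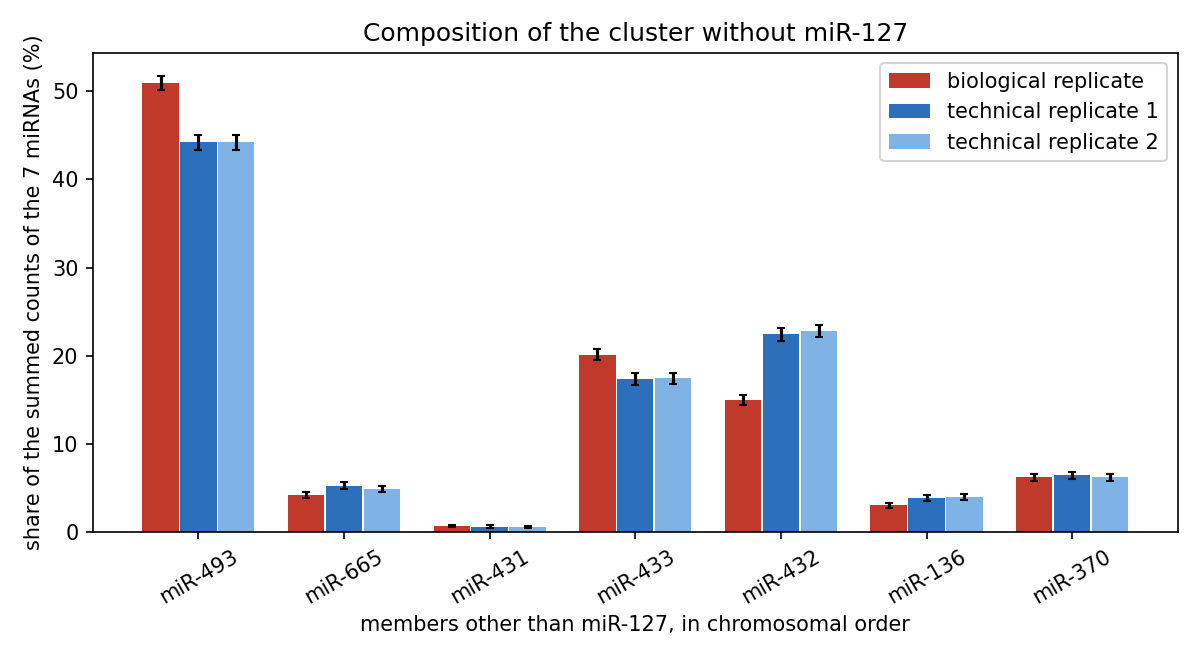
Share (%) of the summed counts of the 7 members other than miR-127, per library, in chromosomal order, with bars from 0 and exact 95% counting intervals. The technical pair is nearly alike for each member, while the biological replicate has 51.0% miR-493 and 14.9% miR-432, against 44.2% (both libraries) and 22.4 and 22.8% in the technical replicates.

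The other miRNAs of the imprinted region, which are known from the large miR-379 to miR-656 cluster beyond MEG8 and from miR-1247 beside DIO3, served for comparison. The list held 52 mature miRNAs, of which 51 lie between DLK1 and DIO3 in the RefSeq annotation (all but miR-544b, which was not among those tested). Together these took 4.43% of the counts in the biological replicate, against 4.25 and 4.67% in the technical replicates. Among the 45 that could be tested there were 9 higher and 6 lower, and 30 failed to pass (edgeR, adjusted p below 0.05), a share of 33.3% called beside the 37.9% over all miRNAs. With library totals 2 were higher and 8 lower. The median absolute log2 fold change was 0.29 for the 8 members and 0.23 for these 45, beside 0.28 over all miRNAs, and the difference was not tested.

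The 4 most abundant of the list were miR-379, miR-411a, miR-409a and miR-154c. miR-379, the first hairpin of its cluster, was at the level of miR-127, with 16445 CPM in the biological library, against 15414 and 17759 CPM in the technical replicates. miR-379 and miR-411a did not pass, with log2 fold changes of 0.17 each (edgeR, adjusted p = 0.27 and 0.26). With TMM, miR-409a and miR-154c were higher by 0.26 and 0.23 (edgeR, adjusted p = 0.018 and 0.042), but neither passed with library totals. For miR-409a the biological library had 3308 CPM, above the 3213 and 3029 CPM of the technical replicates. For miR-154c it had 2344 CPM, between the technical replicates at 2071 and 2460 CPM. The largest calls were larger than any in the miR-127 to miR-136 cluster: miR-3956 and miR-543 were higher by 1.19 and 1.02, and miR-376b and miR-411b had log2 fold changes of -0.99 and -0.71. These 4 also passed with library totals. By mean level miR-376b and miR-3956 were scarce, at 8.45 and 33.7 CPM, whereas miR-543 and miR-411b had 804 and 227 CPM. The fold change of miR-376b had an SE of 0.29.

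**Figure D4:**
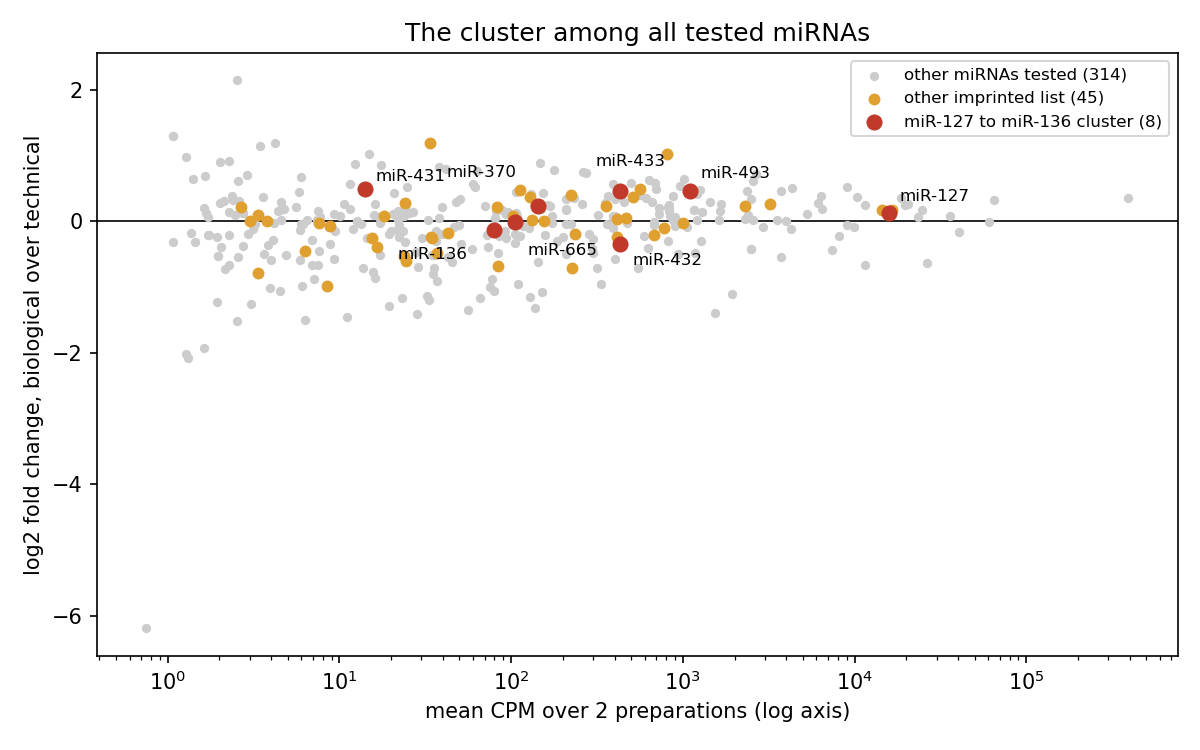
Log2 fold change, biological over technical (edgeR, TMM), against mean CPM (log axis) for the 367 tested miRNAs, with the 8 members in red, the 45 other imprinted miRNAs in orange and the remaining 314 in grey. The members lie between -0.34 and 0.49, inside the cloud of the other miRNAs.

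Outside the imprinted region, the 3 miRNAs most like miR-127 across the libraries were miR-335, miR-16b and miR-129-5p. Likeness was the Euclidean distance between the 3 log2(CPM + 1) values, each centred on its mean over the preparations, and it was 0.018 for miR-335, 0.033 for miR-16b and 0.041 for miR-129-5p. miR-335 had 105 CPM in the biological library, against 105 and 113 CPM in the technical replicates, which is the pattern of miR-127 at a lower level. With only 3 libraries such likeness is common: 18 of the 138 candidates of at least 100 CPM lay within a distance of 0.1.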

How the data were processed

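Raw read counts were deposited by the authors in 919 rows, each pairing a mature miRNA with a hairpin. The submitters' processing notes name UMD3.1 and edgeR. The tool that aligned and counted the reads is not given in the sources used here. Values in CPM deposited by the authors equal counts over column totals. The log2 values deposited by the authors (459 rows, all 8 members among them) served as an alternative only. Because 73 miRNAs have several rows, only the row with the most counts stood for each mature miRNA, and CPM were recomputed over these totals. No other mature miRNA had the same counts as a member in all 3 libraries.

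Preparations were compared in edgeR 4.0.16 under R 4.3.3, biological over technical (TMM, quasi-likelihood, adjusted p below 0.05), after a test on simulated data. Each SE is the absolute log2 fold change over the square root of F. Alternatives were other scalings, filters, row handling, DESeq2 1.42.0 and left-out libraries. The members, lists and naming rule (all members; of the imprinted list, the 4 most abundant and the 2 largest calls each way) were chosen with earlier results of these data known. RefSeq gave gene order only, since its assembly is not UMD3.1.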

Additional observations from a re-analysis of the deposited data

How the results depend on the processing

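The number of called members was 3 under 7 of the 8 alternatives and 1 (miR-432) with library totals. miR-432 passed under all 8, and miR-493 and miR-433 under all but library totals. The fold change of miR-127, not called, was -0.063 with library totals and -0.030 with only miRNAs of at least 100 CPM fitted, and -0.031 in the authors' log2 values, which gave 0.31, 0.32 and -0.49 for miR-493, miR-433 and miR-432 and have no test; no other member changed sign in a tested setting, and miR-665, not called either, had 0.054 without technical replicate 1. Of the other imprinted miRNAs, 7 were called in DESeq2 and 7 with only miRNAs of at least 100 CPM fitted, where fewer were tested, against 15; over all miRNAs the counts were 84 and 70, against 139. The cluster's share of counts was 1.38% with hairpin rows summed, since repeated rows then enlarge the total, 3.01% without miR-375, and between 1.79 and 1.86% with a library left out. With 1 technical library left out the test has no residual degrees of freedom, so folds alone were computed: 0.43 to 0.47 for miR-493, 0.44 to 0.47 for miR-433 and -0.36 to -0.35 for miR-432. Arm shares were not run, since each hairpin has 1 mature row. No paired analysis was possible because the labels state no pairing between the biological and the technical libraries. Depth limits miR-431 most, at 71 to 104 counts a library.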
